A study of Saccharomyces cerevisiae with 36 samples.

Results

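The response of the Saccharomyces cerevisiae isolate NCYC3290 to the inhibitors of plant hydrolysate was measured by RNA sequencing as the change between cultures in SynH, a synthetic lignocellulosic hydrolysate that contains toxins, and cultures in SynH -HTs, the same hydrolysate without them. The comparison uses 4 of the 36 libraries of the series, 2 in SynH and 2 in SynH -HTs, and covers every gene with a mean of at least 1 RPKM (reads scaled to gene length and to the total of the library) over the 36 libraries, which are 5927 of 6717 features. NCYC3290 is labelled a wild strain of medium resistance to SynH. A pair of NCYC3290 libraries from YPD, a rich laboratory medium, is given for reference. The same contrast in the other 5 isolates (K11 and NCYC361, labelled sensitive, and UWO.S05.22-7, Y7568 and YPS128, labelled resistant, all wild) serves as background. All cultures were grown for at least 3 generations to an optical density near 0.5, and the replicates are described as biological and collected on different days. The labels name no compound of the toxin mixture and give no ploidy or genotype.

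Hydrolysates carry the sugars of plant cell walls together with weak acids, aldehydes and phenolic compounds released by pretreatment. Yeast meets such compounds with ABC transporters, which pump acid anions and drugs out of the cell, and with NADPH-dependent reductases, which turn aldehydes into less reactive alcohols. Growth under stress also engages the transcription factors Msn2 and Msn4, which act on carbohydrate stores and protective proteins, and Gcn4, which raises amino acid synthesis genes when amino acids or charged tRNAs run short.

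The NCYC3290 libraries held 2916714 and 8043386 reads in coding genes in SynH, 2703065 and 5180618 in SynH -HTs, and 5713916 and 2771414 in YPD. Replicates 1 and 2 of SynH -HTs differed over genes in a pattern shared by all strains. The difference of replicate 2 from replicate 1 in NCYC3290 correlated over genes with that of the other strains at r = 0.43 to 0.58. Both SynH -HTs libraries of NCYC3290 thus belong to sets that stand apart from each other. In SynH the sharing was uneven, from r = -0.01 with NCYC361 to 0.41 with Y7568 and 0.63 with YPS128. The median gene was lower by 0.46 on the log2 scale in replicate 2 of SynH -HTs than in replicate 1, and higher by 0.34 in replicate 2 of SynH (replicate 2 minus replicate 1, -0.46 and 0.34). Counts are therefore also given without single libraries. Values are shares of a library, so neither the number of cells nor the total RNA per cell can be read from them. All RPKM levels below include the 1 read that the authors added to each count, and log2 changes are SynH minus SynH -HTs with a standard error (SE) from a limma fit over all 36 libraries, n = 2 each.

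Of the 5927 genes, 269 were higher in SynH (4.54%) and 51 lower (0.86%) at an adjusted p under 0.05, 320 in all (5.4%). The change was at least 2-fold for 206 of the higher and 22 of the lower genes. Both SynH values lay outside both SynH -HTs values for all 320 genes, and for 35.0% of all genes tested, so this separation alone is common in 2 against 2 libraries. The median change of all genes was 0.16. After median centring of each library it was -0.08, and the split became 190 higher and 136 lower, and after quantile normalization it was -0.05, with 231 higher and 128 lower. The balance of directions thus depends on the scaling. A term for the replicate number within each medium, which takes up the replicate differences that strains share, gave 721 higher and 206 lower genes. That fit leaves the shared differences out of its error, although a contrast of media remains exposed to them. Its larger counts are therefore not a stricter test. Without SynH replicate 1 the test called 207 genes, without SynH replicate 2 it called 133, without SynH -HTs replicate 1 it called 181, and without SynH -HTs replicate 2 it called 185. Of the 269 genes called higher, 37 were called higher in all 5 other strains as well and 24 in none of them, and of the 51 called lower the numbers were 3 and 8. The other strains had 143 genes higher (2.41%) and 88 lower (1.48%) in K11, 526 (8.87%) and 93 (1.57%) in NCYC361, 147 (2.48%) and 23 (0.388%) in UWO.S05.22-7, 281 (4.74%) and 87 (1.47%) in Y7568, and 324 (5.47%) and 82 (1.38%) in YPS128.

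The largest rise was in a gene of aldehyde reduction. ADH7 (YCR105W, chromosome III 309070 to 310155), an NADPH-dependent alcohol dehydrogenase of the cinnamyl alcohol type, had 6942 and 6413 RPKM in SynH, against 3.27 and 3.27 RPKM in SynH -HTs, and 4.39 and 4.66 RPKM in YPD. Both SynH libraries lay far above the 4 others, for a log2 change of 10.996 ± 0.325 (adjusted p = 4.64e-17). The SynH -HTs values rest on 12 and 25 reads. ARI1 (YGL157W), an NADPH-dependent aldehyde reductase, had 2322 and 2426 RPKM in SynH and 158.0 and 97.3 RPKM in SynH -HTs (4.26 ± 0.33, adjusted p = 6.34e-09). Levels in YPD, 59.5 and 75.3 RPKM, were below both hydrolysate media. ADH6, the closest relative of ADH7 in function, rose less, with 202.2 and 231.9 RPKM in SynH and 127.6 and 130.0 RPKM in SynH -HTs (0.75 ± 0.14, adjusted p = 0.0011). The call for ADH6 was lost after median centring and with the 4 NCYC3290 libraries fitted alone.

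Of 23 aldehyde reductase genes tested, 12 were called higher and 0 lower, with a median change of 1.17 against 0.16 over all genes. Leaving out 1 library left 9 to 12. The methylglyoxal reductase gene GRE2 had 457.1 and 448.0 RPKM in SynH against 141.4 and 150.6 RPKM in SynH -HTs (1.63 ± 0.20, adjusted p = 9.9e-06), and YNL134C 243.9 and 275.1 against 79.7 and 83.8 RPKM (1.66 ± 0.21). Both genes were lower still in YPD, at 29.3 and 30.6 RPKM for GRE2 and 19.6 and 20.03 RPKM for YNL134C. The aldose reductase gene GRE3 (1.17 ± 0.25) and the glycerol dehydrogenase gene GCY1 (2.77 ± 0.44) rose as well. OYE3, an NADPH oxidoreductase gene, rose by 2.56 ± 0.57, but lost its call without either SynH library and without SynH -HTs replicate 2. Among 8 aldehyde dehydrogenase genes, which oxidise aldehydes to acids, 3 were called higher: ALD4 (3.09 ± 0.51), ALD3 (1.38 ± 0.39) and UGA2 (1.08 ± 0.31). Leaving out any 1 library left 1 of them, ALD4. The main cytosolic form, ALD6, had 771.5 and 1150.0 RPKM in SynH against 473.0 and 563.4 RPKM in SynH -HTs and did not pass the test (adjusted p = 0.125).

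Efflux pumps rose with the reductases. PDR12 (YPL058C, chromosome XVI 445842 to 450377), the exporter of organic acid anions under the factor War1, had 1390 and 1179 RPKM in SynH, 33.5 and 33.7 RPKM in SynH -HTs, and 41.4 and 43.8 RPKM in YPD. SynH stood apart from both other media, which were alike (5.25 ± 0.21, adjusted p = 2.3e-14). Of the drug pumps under Pdr1 and Pdr3, SNQ2 had 482.4 and 373.4 RPKM in SynH, 54.4 and 66.3 RPKM in SynH -HTs, and 171.0 and 181.7 RPKM in YPD (2.82 ± 0.19, adjusted p = 6.34e-10). For PDR5 the levels were 341.7 and 301.1 RPKM in SynH, 56.2 and 86.0 RPKM in SynH -HTs, and 318.8 and 339.2 RPKM in YPD (2.21 ± 0.22, adjusted p = 4.35e-07). PDR5 in SynH thus lay at the level of YPD, and its lowest values were in SynH -HTs. YOR1, another multidrug exporter, had 51.3 and 47.6 RPKM in SynH, 24.4 and 22.9 RPKM in SynH -HTs, and 55.8 and 63.9 RPKM in YPD (1.06 ± 0.17, adjusted p = 0.000313). In all, 7 of 15 genes of the Pdr1 and Pdr3 list were called higher and 0 lower, with 5 or 6 left when 1 library was left out and 4 after median centring, where YOR1 lost its call. The gene of the activator PDR3 rose by 0.97 ± 0.27, and PDR1, whose factor activates PDR3, had 10.5 and 13.2 RPKM in SynH against 15.9 and 10.3 RPKM in SynH -HTs (adjusted p = 0.937). Of 14 tested targets of War1 and Haa1, 4 were called higher and 0 lower, PDR12, the membrane heat shock gene HSP30 (4.51 ± 0.58), the cell wall gene SPI1 (3.35 ± 0.55) and the secreted glycoprotein gene YGP1 (2.55 ± 0.53), and the count stayed at 4 whichever 1 library was left out and was 3 after median centring, where YGP1 lost its call. HSP30 had 1 and 1 reads in SynH -HTs, so the size of its change depends on the added read. YGP1 had 1892 and 1754 RPKM in SynH, 286.6 and 335.5 RPKM in SynH -HTs, and 1.69 and 5.01 RPKM in YPD.

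**Figure D1:**
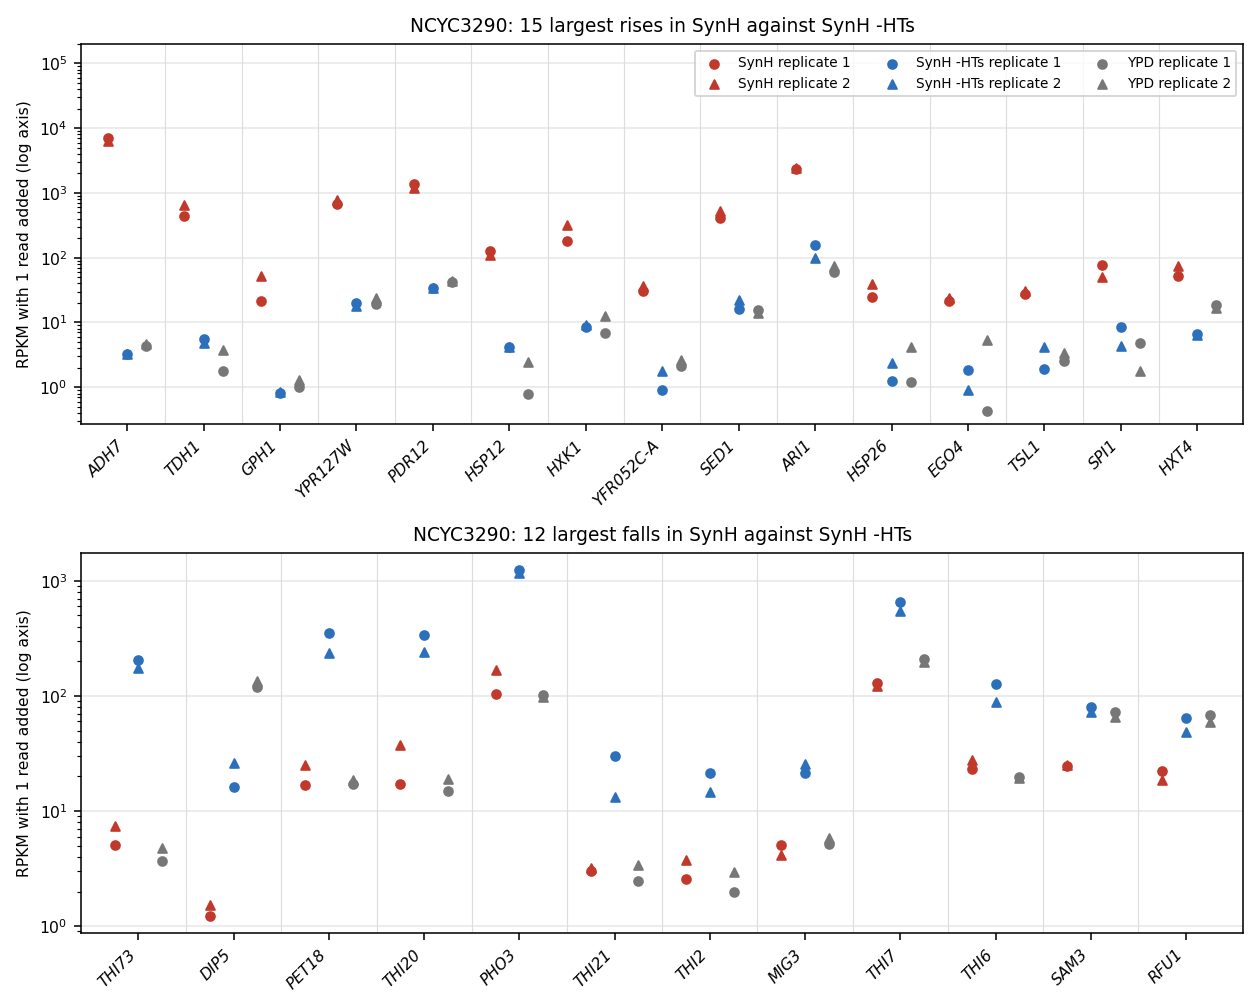
RPKM, with 1 read added and on a log axis, of the 15 genes with the largest rises and the 12 with the largest falls in NCYC3290, with each library as a point in SynH (red), SynH -HTs (blue) and YPD (grey), replicate 1 as circles and replicate 2 as triangles. For each of the 27 genes both SynH points lie on 1 side of both SynH -HTs points, and the thiamine genes in SynH, such as PHO3 at 104.3 and 166.4 RPKM, sit near their level in YPD.

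Many genes of the general stress response and of carbohydrate stores were called higher. Of 30 tested targets of Msn2 and Msn4, 16 were called higher and 0 lower, with a median change of 1.90, and 11 to 15 remained when 1 library was left out. HSP12, a small membrane protein gene, had 129.1 and 110.6 RPKM in SynH against 4.14 and 4.13 RPKM in SynH -HTs (4.85 ± 0.72, adjusted p = 0.00012). HSP26, a small heat shock protein gene, had 24.7 and 39.1 RPKM against 1.27 and 2.33 RPKM (4.18 ± 0.62, adjusted p = 0.00012), the last 2 from 2 and 10 reads. The catalase gene CTT1 (2.08 ± 0.41) and the small heat shock protein gene HSP42 (3.11 ± 0.72) also rose, HSP42 without a call when SynH replicate 2 or SynH -HTs replicate 2 was left out. In the glycogen and trehalose list, 10 of 20 genes were called higher and 0 lower, with a median change of 1.48. GPH1, the glycogen phosphorylase gene, had 21.6 and 52.7 RPKM in SynH against 0.81 and 0.86 RPKM in SynH -HTs (5.34 ± 0.66, adjusted p = 1.1e-05). The glycogen synthase gene GSY2 (2.42 ± 0.41), the phosphoglucomutase gene PGM2 (2.56 ± 0.43) and the trehalose synthase subunit gene TSL1 (3.37 ± 0.50) rose with it, so the called genes include ones for synthesis and for breakdown of the stores. Without SynH replicate 2, 4 of the 20 genes of this list were called. EGO4, another of the 15 largest rises, had 25 and 76 reads in SynH against 1 and 1 in SynH -HTs, so the size of its change depends on the added read.

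TSL1 is shown because its upstream region held the most copies, 3, of the stress response element AGGGG, the core bound by Msn2 and Msn4, among the 15 largest rises. The sequence is from the RefSeq assembly R64 of the laboratory strain S288C, chrXIII:70324-70523 on the plus strand, from 300 to 101 bases before the start codon, with matches of AGGGG or its reverse complement CCCCT in capitals. NCYC3290 may differ from it.
TSL1: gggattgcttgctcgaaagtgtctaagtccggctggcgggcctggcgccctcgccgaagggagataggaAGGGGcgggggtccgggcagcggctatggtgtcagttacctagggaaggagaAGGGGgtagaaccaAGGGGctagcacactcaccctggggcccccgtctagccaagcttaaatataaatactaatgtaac
The matches began 231, 179 and 165 bases before the start codon. Searched on both strands over the 300 bases before the start codon, AGGGG occurred in 8 of the 14 of these rises that have such a window in the annotation, and in 22.6% of all promoters of tested genes (1253 of 5543). The element is short and common, and a match is a description of these letters in the reference strain.

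Chaperone and proteasome genes had few calls. Of 21 chaperone targets of Hsf1, 2 were called higher, SSA1 (1.57 ± 0.37) and HSP42, and 2 lower, SSA2 (-0.66 ± 0.15) and SSE1 (-0.55 ± 0.16). SSA1 and SSA2 are near-identical copies of a cytosolic Hsp70 gene, so reads may have been split between them. SSA2 had 702.4 and 755.1 RPKM in SynH and 1098 and 1198 RPKM in SynH -HTs, while SSA1 had 146.6 and 223.0 RPKM in SynH and 59.6 and 61.9 RPKM in SynH -HTs. None of these 4 calls held in all fits with 1 library left out. The count for the chaperone list depends on the scaling, with 6 higher and 0 lower after median centring and 4 higher and 2 lower after quantile normalization, and its median change was 0.42. Without the 6 SynH -HTs libraries of replicate 1 there were 6 higher and 1 lower. RPN4, the activator of proteasome genes, rose to 58.1 and 78.8 RPKM in SynH, against 33.5 and 26.0 RPKM in SynH -HTs (1.20 ± 0.30, adjusted p = 0.0144), a call lost without SynH replicate 2 or without SynH -HTs replicate 2. Of the 34 proteasome genes on the list, RPN4 itself was the 1 called, and the median change of the list was 0.14. YAP1, the activator of oxidative stress genes, had 36.5 and 48.5 RPKM in SynH against 31.3 and 22.6 RPKM in SynH -HTs and did not pass the test (adjusted p = 0.496), and 5 of 22 Yap1 targets were called higher, with 2 to 4 left when 1 library was left out. The mitochondrial peroxiredoxin gene PRX1 (2.004 ± 0.345) and the superoxide dismutase gene SOD2 (1.002 ± 0.227) were among them, SOD2 without a call after median centring. In the unfolded protein list 1 of 16 genes was called higher and 0 lower, and its best known member, the chaperone gene KAR2, had 375.7 and 406.9 RPKM in SynH against 333.9 and 288.6 RPKM in SynH -HTs (adjusted p = 0.281).

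In sugar metabolism the rises were in a few isoforms rather than across the pathway. TDH1 (YJL052W), the stress-linked form of glyceraldehyde-3-phosphate dehydrogenase, had 443.4 and 644.8 RPKM in SynH, 5.47 and 4.78 RPKM in SynH -HTs, and 1.80 and 3.74 RPKM in YPD (6.71 ± 0.45, adjusted p = 4.84e-10). HXK1, a hexokinase gene repressed by glucose, had 181.5 and 320.3 RPKM in SynH against 8.61 and 9.07 RPKM in SynH -HTs (4.77 ± 0.58, adjusted p = 1.07e-05). GLK1, the glucokinase gene, which overlaps another gene, rose by 2.69 ± 0.43, and the enolase gene ENO1 by 1.85 ± 0.29, so 5 of 24 genes of glycolysis and fermentation were called higher and 0 lower, with a list median of 0.11. After median centring 3 were called, and ENO1 was not among them. YFR052C-A, a feature that the annotation used here does not list, had 30.9 and 36.6 RPKM in SynH against 0.89 and 1.78 RPKM in SynH -HTs (4.74 ± 0.61).

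Among hexose carriers, HXT4 had 52.0 and 74.6 RPKM in SynH, 6.63 and 6.30 RPKM in SynH -HTs, and 18.4 and 16.6 RPKM in YPD (3.27 ± 0.47, adjusted p = 7.63e-05). HXT3, a low-affinity carrier, had 1135 and 941.5 RPKM in SynH, 242.9 and 297.4 RPKM in SynH -HTs, and 607.6 and 515.2 RPKM in YPD (1.94 ± 0.18, adjusted p = 2.52e-07). HXT1, the carrier gene induced by high glucose, had 517.0 and 296.7 RPKM in SynH and 647.9 and 793.6 RPKM in SynH -HTs and did not pass the test (-0.87 ± 0.26, adjusted p = 0.0563). MTH1, a repressor of HXT genes, rose by 2.73 ± 0.65, a call lost without SynH replicate 2 and without either SynH -HTs library. MIG3, the gene of a glucose-dependent repressor, had 5.05 and 4.17 RPKM in SynH, 21.2 and 25.8 RPKM in SynH -HTs, and 5.21 and 5.85 RPKM in YPD (-2.35 ± 0.38, adjusted p = 0.000275). Of 12 glucose-repressed genes 4 were called higher and 0 lower, none of them without SynH replicate 2 and 2 after quantile normalization.

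Genes of mitochondrial metabolism and of NADPH supply rose in part. In the tricarboxylic acid cycle 7 of 23 genes were called higher and 0 lower, with 3 to 6 left when 1 library was left out and 2 after median centring, and CIT1, the mitochondrial citrate synthase gene, had 154.2 and 201.5 RPKM in SynH against 62.4 and 62.7 RPKM in SynH -HTs (1.495 ± 0.224, adjusted p = 0.000126). SDH2, a succinate dehydrogenase gene, rose by 1.37 ± 0.21, and IDP1, which makes NADPH in mitochondriaby 0.98 ± 0.15, and neither SDH2 nor IDP1 was called after median centring. For the respiratory chain and ATP synthase the count was 8 of 33 higher and 0 lower, with 1 to 5 left without 1 library and 16 without the 6 SynH -HTs libraries of replicate 1. The pentose phosphate list had 6 of 11 genes higher and 0 lower, and 2 higher after median centring. ZWF1, the enzyme gene of its NADPH-yielding entry step, had 311.3 and 184.4 RPKM in SynH, 97.5 and 99.1 RPKM in SynH -HTs, and 63.8 and 55.1 RPKM in YPD (1.29 ± 0.22, adjusted p = 0.000404), a call lost after median centring. NQM1, a transaldolase gene, rose by 4.10 ± 0.76, with 1.36 and 0.41 RPKM in SynH -HTs.

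Cell wall genes held one of the strongest rises. SED1 (YDR077W, chromosome IV 600793 to 601809), a major glycoprotein of the stressed cell wall, had 408.6 and 520.9 RPKM in SynH, 16.1 and 21.99 RPKM in SynH -HTs, and 15.6 and 14.2 RPKM in YPD (4.62 ± 0.35, adjusted p = 3.62e-09). Of 19 genes of the cell wall integrity list, 5 were called higher and 0 lower, with PIR3 (3.10 ± 0.53), CWP1 (1.48 ± 0.32) and the yapsin gene YPS1 (1.04 ± 0.22) among them. Without SynH replicate 1 or without SynH -HTs replicate 1, 2 of the 19 were called, as after median centring, where CWP1 and YPS1 lost their calls.

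Thiamine genes made up most of the largest falls. Of 16 tested genes of thiamine and pyridoxine metabolism, 0 were called higher and 8 lower, with a median change of -1.58, and 5 to 7 stayed lower when 1 library was left out. A further 7 genes of the list were under the filter on low values. PHO3, a thiamine-repressible acid phosphatase gene, had 104.3 and 166.4 RPKM in SynH, 1238 and 1169 RPKM in SynH -HTs, and 102.3 and 98.2 RPKM in YPD (-3.19 ± 0.41, adjusted p = 1.82e-05). The SynH -HTs libraries were the high ones, and SynH lay at the level of YPD or little above. THI73, which is regulated by thiamine, had 5.07 and 7.36 RPKM in SynH, 206.2 and 173.8 RPKM in SynH -HTs, and 3.68 and 4.75 RPKM in YPD (-4.95 ± 0.63, adjusted p = 1.82e-05). THI7, the thiamine transporter gene, had 130.7 and 121.8 RPKM in SynH, 659.4 and 543.1 RPKM in SynH -HTs, and 208.4 and 195.2 RPKM in YPD (-2.25 ± 0.22, adjusted p = 4.88e-07). PET18 (-3.80 ± 0.59) and THI20, a thiamine synthesis kinase gene (-3.48 ± 0.66), fell alongside them. THI21 (-2.68 ± 0.50) and THI6 (-2.08 ± 0.46), both of thiamine synthesis, and THI2, an activator gene (-2.51 ± 0.69), fell too, but each lost its call in 1 or more fits without a single library. THI4, the gene of the thiazole synthase, was at 1.78 and 0.95 RPKM in SynH and 3.90 and 1.95 RPKM in SynH -HTs and did not pass the test (adjusted p = 0.659). In the other strains the same list had 0 higher and 7 lower genes in Y7568, 0 and 7 in YPS128, 0 and 1 in UWO.S05.22-7, 2 and 1 in NCYC361, and 1 and 0 in K11. No thiamine gene passed the test of the difference between NCYC3290 and the mean of the other 5.

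Other falls were in transporters and nucleotide genes. DIP5 (YPL265W, chromosome XVI 41043 to 42869), the permease of acidic amino acids, had 1.23 and 1.53 RPKM in SynH from 8 and 29 reads, 16.1 and 26.3 RPKM in SynH -HTs from 107 and 351 reads, and 120.6 and 134.2 RPKM in YPD (-3.91 ± 0.38, adjusted p = 3.44e-07). SAM3, a permease of S-adenosylmethionine, had 24.7 and 24.9 RPKM in SynH, 80.6 and 73.2 RPKM in SynH -HTs, and 73.2 and 65.9 RPKM in YPD (-1.63 ± 0.21, adjusted p = 2.31e-05). FUI1, the uridine permease gene, had 3.11 and 1.56 RPKM in SynH, 13.9 and 14.1 RPKM in SynH -HTs, and 42.1 and 36.5 RPKM in YPD (-2.67 ± 0.31, adjusted p = 6.87e-06). All 3 transporters were lowest in SynH. RFU1, the gene of an inhibitor of ubiquitin recycling, fell by 1.46 on the log2 scale (SE 0.32), a call lost without SynH replicate 2 and without SynH -HTs replicate 1. In the purine list, 0 of 21 genes were called higher and 5 lower, among them the adenine deaminase gene AAH1 (-1.16 ± 0.26), IMD3 (-0.62 ± 0.16) and GUA1 (-0.49 ± 0.14). Leaving out 1 library left 1 to 3, and median centring left 2, with IMD3 and GUA1 not called. Of 137 cytosolic ribosomal protein genes, 0 were called higher and 4 lower, RPL18B, RPL14B and RPL1A, which have near-identical copies, and RPL12A, with changes between -0.72 and -0.50 and a list median of -0.28. None of these 4 was called after median centring, which gave 3 lower calls in the list. Ribosome biogenesis genes had a median of -0.44 with 1 of 56 called lower, CBF5 (-0.89 ± 0.18). That count was 15 after median centring, 7 after quantile normalization and 13 without the 6 SynH -HTs libraries of replicate 2.

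Several smaller programmes moved in both directions or little. In sulfate assimilation and methionine synthesis 9 of 29 genes were called higher and 2 lower, SAM3 and SAM1. SUL2, a sulfate permease gene, had 11.1 and 11.9 RPKM in SynH against 1.73 and 1.53 RPKM in SynH -HTs (2.82 ± 0.29, adjusted p = 7.03e-07), and MET3, the ATP sulfurylase gene, 43.5 and 56.8 against 11.7 and 9.77 RPKM (2.22 ± 0.29). MET2, a gene of homocysteine synthesis, rose by 2.62 ± 0.38. The transaminase gene ARO9 (1.78 ± 0.24) and the decarboxylase gene ARO10 (2.73 ± 0.38), which act in the breakdown of aromatic amino acids, rose with BAT2 as 3 of 7 genes of that list. In the nitrogen catabolite list 4 of 21 rose, UGA1, PUT1, MEP3 and CAR1, between 1.17 and 2.65, and after median centring MEP3 and CAR1 were not called. In the iron regulon 6 of 27 genes were called higher and 1 lower, but 0 to 2 higher calls were left when 1 library was left out and 1 after either other scaling. INO1, the inositol synthesis gene, had 17.0 and 16.02 RPKM in SynH against 2.73 and 3.41 RPKM in SynH -HTs (2.44 ± 0.34, adjusted p = 6.38e-05), the 1 gene of 18 called on the phospholipid list and the 1 higher gene of the zinc and unfolded protein lists, which also hold it. Of 27 ergosterol genes 1 was called higher, ERG28 (0.63 ± 0.16, not called after median centring), and of 17 anaerobic genes 0 were called at the threshold in either direction. For zinc the count was 1 higher and 1 lower of 12, for phosphate 0 and 1 of 14, the 1 being PHO3, for NAD synthesis 1 and 0 of 15, and for glycerol and osmotic stress 3 and 0 of 17. None of 14 tested haploid-specific and mating genes was called, and 1 of 7 meiosis and sporulation genes was, SPO24, with 642.4 and 626.6 RPKM in SynH against 68.3 and 131.7 RPKM in SynH -HTs (2.74 ± 0.41).

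**Figure D2:**
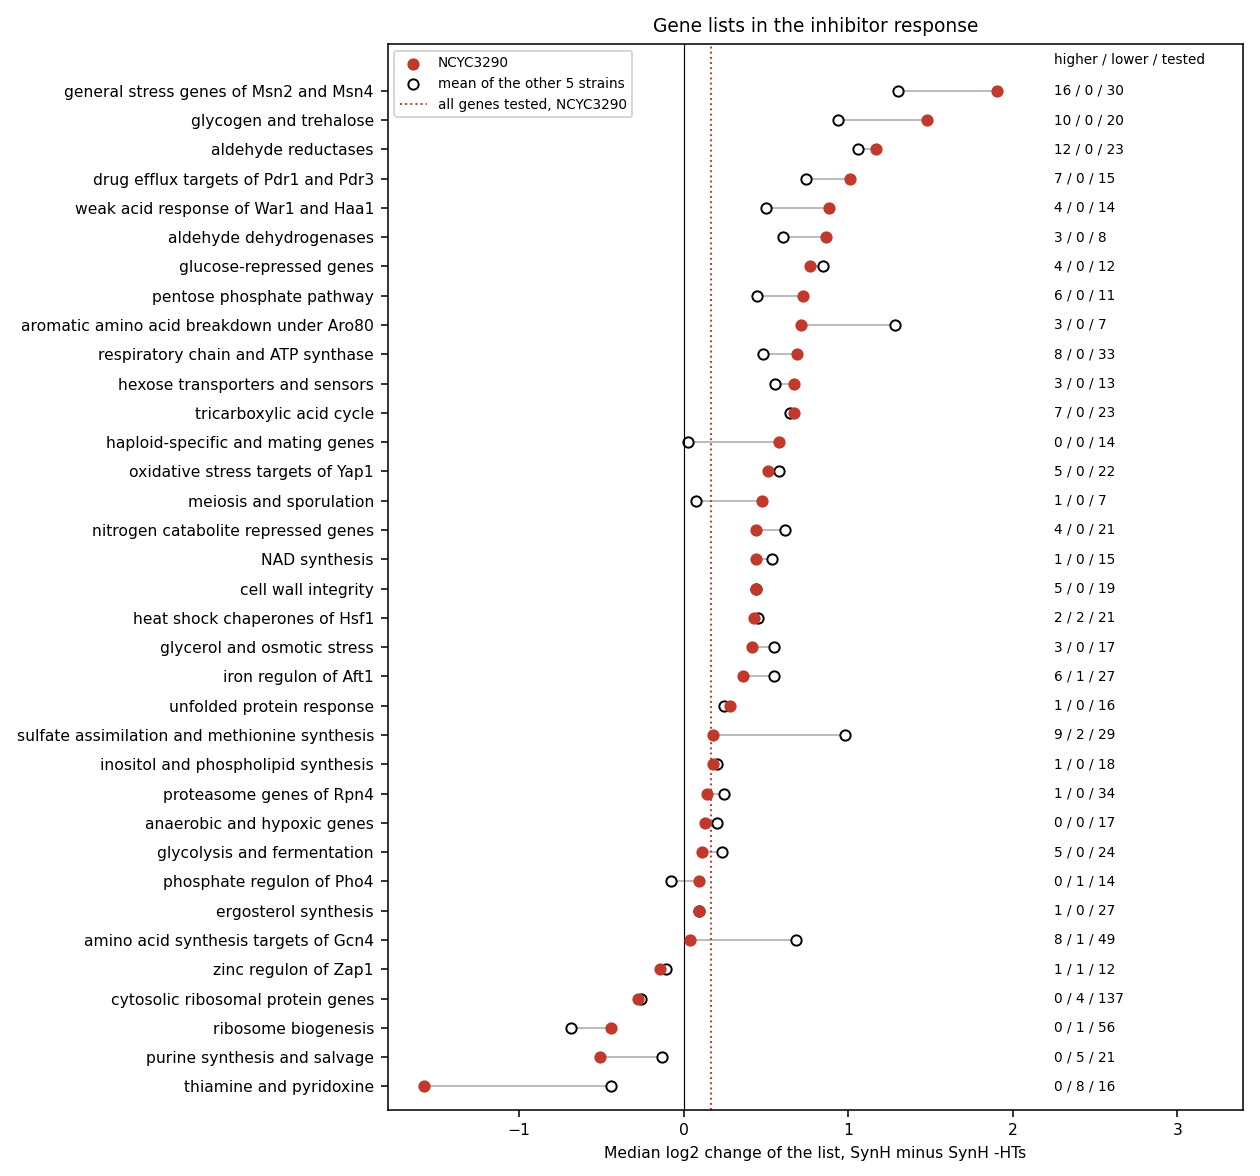
Median log2 change, SynH minus SynH -HTs, of 35 gene lists in NCYC3290 (red) and in the mean of the other 5 strains (open circles), with the numbers called higher, called lower and tested in NCYC3290 at the right. The dotted line is the NCYC3290 median of all genes tested, 0.16, and the lists range from 1.90 for general stress genes to -1.58 for thiamine and pyridoxine.

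Where NCYC3290 differed from the other strains was asked by a test of its change against the mean change of the other 5. The test called 25 of 5927 genes (0.422%), 4 with a more positive change in NCYC3290 (0.0675%) and 21 with a more negative one (0.354%). Without SynH replicate 1, SynH replicate 2, SynH -HTs replicate 1 or SynH -HTs replicate 2 of NCYC3290 it called 11, 10, 9 and 8 genes. DIP5, AAD4, LYS20, ADH7, SED1 and YPR127W kept the call in all 4 of these fits. Without the 6 SynH -HTs libraries of replicate 1 the count was 14, and without those of replicate 2 it was 15. With the replicate number within each medium as a term it was 81. After median centring IRC7, ADH5, LYS1, ASN2, BAP2, GGC1, HOM3, LYS9, MET22, YMC1 and TRP5 were not called. The strain mean hides wide ranges, so levels are given by strain.

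**Figure D3:**
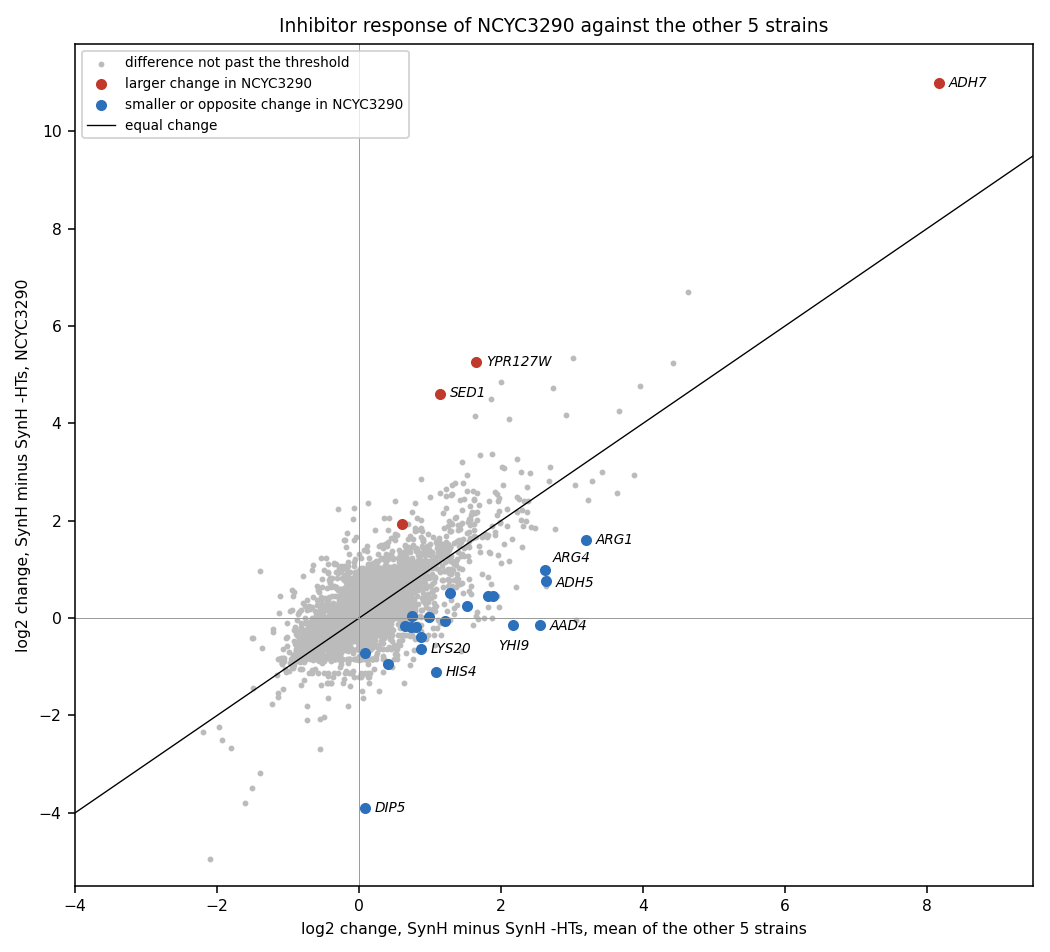
Log2 change, SynH minus SynH -HTs, of NCYC3290 (vertical) against the mean of the other 5 strains (horizontal), with 1 point per gene tested and the line of equal change. The 4 genes called with a larger change in NCYC3290 are red and the 21 called with a smaller or opposite change blue, and DIP5 lies at -3.91 in NCYC3290 against 0.08 in the mean of the others.

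YPR127W (chromosome XVI 790083 to 791120), annotated as a member of the aldo-keto reductase family that acts on pyridoxal, had the clearest larger rise. In NCYC3290 it had 680.2 and 769.9 RPKM in SynH and 19.7 and 17.9 RPKM in SynH -HTs (5.27 ± 0.23), and the mean change of the other strains was 1.65 (difference 3.62 ± 0.26, adjusted p = 5.61e-09). Only NCYC361 came near, with 307.7 and 320.7 RPKM in SynH and 13.4 and 7.97 RPKM in SynH -HTs, a change of 4.93, whereas K11, UWO.S05.22-7, Y7568 and YPS128 had changes of 0.10, 1.11, 0.63 and 1.47. The gene was thus at its highest level of the 18 groups in NCYC3290 in SynH, and the difference from the mean does not separate it from NCYC361.

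SED1 rose by 4.62 in NCYC3290 against 1.15 in the mean of the others (difference 3.47 ± 0.38, adjusted p = 9.85e-06), and its changes in the single strains lay between 0.81 and 1.98. Its level in SynH was the lowest of the 6 strains, 408.6 and 520.9 RPKM, against 928.2 to 3316 RPKM in the others. In SynH -HTs the gap was wider, with 16.1 and 21.99 RPKM in NCYC3290 against 430.2 to 1144 RPKM in the others. The larger change in NCYC3290 therefore starts from a lower level without toxins. In YPD NCYC3290, at 15.6 and 14.2 RPKM, and K11, at 14.2 and 20.2 RPKM, were both low, and the other 4 strains had 372.9 to 906.7 RPKM.

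For ADH7 the difference of 2.82 ± 0.36 (adjusted p = 8.62e-05) rests on 2 strains. The gene had 0 reads in all 4 SynH and SynH -HTs libraries of K11, and 28.7 and 13.8 RPKM in SynH against 2.28 and 2.27 RPKM in SynH -HTs in UWO.S05.22-7. In NCYC361, Y7568 and YPS128 the changes of 12.90, 12.69 and 12.40 exceeded the 10.996 of NCYC3290, from 1 to 4 reads per library in SynH -HTs, so their size depends on the added read. The difference was not called when K11 or UWO.S05.22-7 was left out of the mean. IRC7, the gene of a cysteine beta-lyase, had 166.6 and 157.7 RPKM in SynH and 43.8 and 41.3 RPKM in SynH -HTs in NCYC3290 (1.93 ± 0.21), against a mean change of 0.60 in the others (difference 1.33 ± 0.23, adjusted p = 0.00617). Y7568, with a change of 1.67, was close to NCYC3290, and the call was lost without SynH replicate 1 or without SynH -HTs replicate 2.

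**Figure D4:**
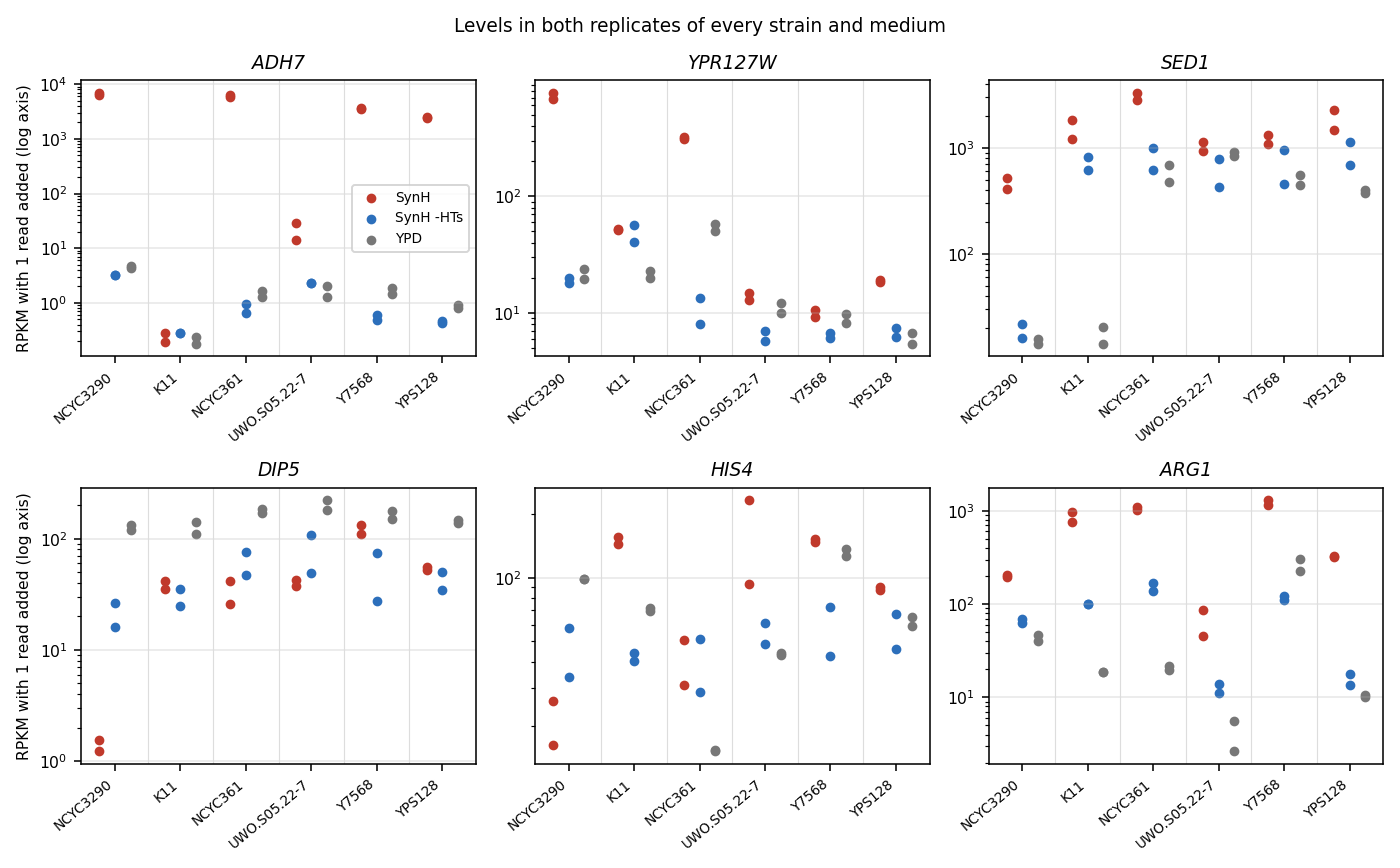
RPKM, with 1 read added and on a log axis, of ADH7, YPR127W, SED1, DIP5, HIS4 and ARG1 in both replicates of every strain in SynH (red), SynH -HTs (blue) and YPD (grey). In NCYC3290, DIP5 in SynH, at 1.23 and 1.53 RPKM, lies below all other points of its panel, and ARG1 in SynH, at 204.6 and 194.5 RPKM, lies above its own SynH -HTs points but below the SynH points of K11, NCYC361, Y7568 and YPS128.

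Amino acid synthesis genes accounted for most of the more negative differences. Of the 49 genes on the list of Gcn4 targets, 11 were among the 21, and 47 of the 49 had a negative difference, against 2023 of all 5927 genes. The list had a median change of 0.04 in NCYC3290, with 8 genes called higher and 1 lower. After median centring the split was 3 higher and 4 lower, and after quantile normalization 6 and 6, so the balance of calls in NCYC3290 turns with the scaling. The differences called on the list were 12 and 16 under these scalings. In the other strains the median was 0.79 in K11, 0.55 in NCYC361, 0.57 in UWO.S05.22-7, 0.93 in Y7568 and 0.72 in YPS128, with 30, 21, 11, 31 and 23 genes called higher. The members do not move independently, and the same 4 NCYC3290 libraries enter each difference. Leaving out 1 of these 4 left 1 to 3 of the 11 calls, and 1 to 4 of the 8 rises in NCYC3290. The transcript of GCN4 itself had 994.5 and 1188 RPKM in SynH, 745.2 and 629.4 RPKM in SynH -HTs, and 994.5 and 1128 RPKM in YPD (0.67 ± 0.16, adjusted p = 0.0134). Gcn4 is controlled mainly at translation, which these data do not measure.

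**Figure D5:**
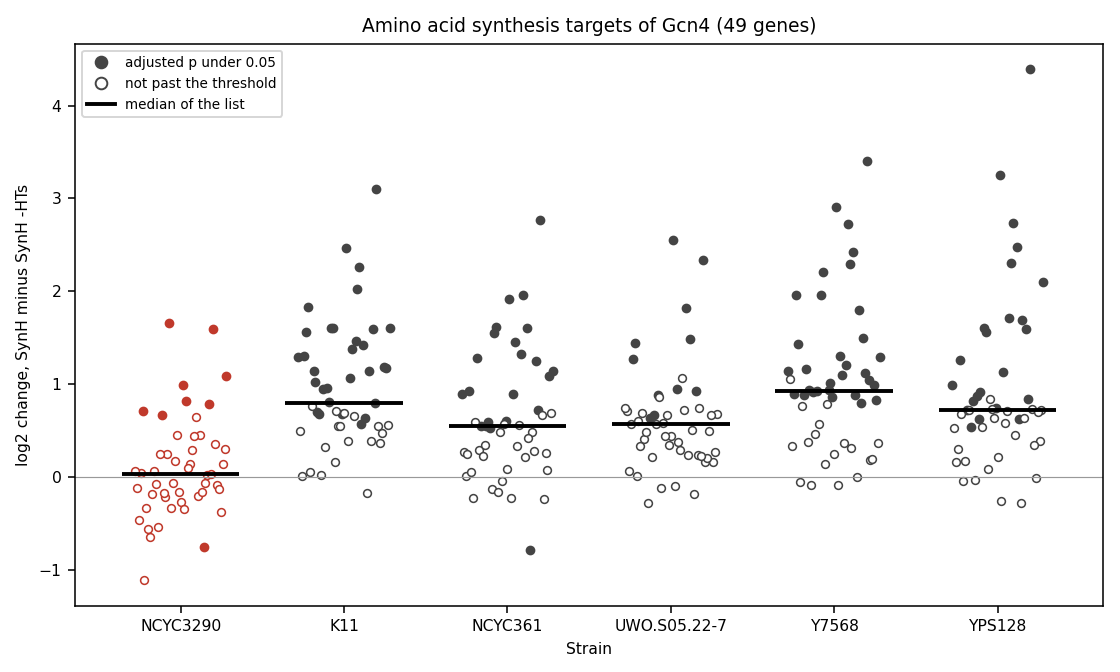
Log2 change, SynH minus SynH -HTs, of the 49 genes on the list of Gcn4 targets in each strain (NCYC3290 red, the others dark grey), with filled points at an adjusted p under 0.05 and bars at the median. NCYC3290, with a median of 0.04, lies below the other strains, whose medians run from 0.55 to 0.93.

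Arginine genes showed the pattern at different strengths. ARG1, the argininosuccinate synthase gene, had 204.6 and 194.5 RPKM in SynH and 62.3 and 70.0 RPKM in SynH -HTs in NCYC3290, a rise of 1.60 ± 0.27, against 1146 and 1298 RPKM in SynH and 109.6 and 121.2 RPKM in SynH -HTs in Y7568. UWO.S05.22-7 had lower ARG1 levels than NCYC3290, 45.9 and 86.1 RPKM in SynH and 13.9 and 11.15 RPKM in SynH -HTs. The mean rise of the other 5 strains was 3.20 (difference -1.61 ± 0.30, adjusted p = 0.00999), and this difference lost its call whichever 1 of the 4 NCYC3290 libraries was left out. ARG4, the argininosuccinate lyase gene, had 43.1 and 41.4 RPKM in SynH and 22.6 and 19.99 RPKM in SynH -HTs in NCYC3290, a rise of 0.99 against 2.62 in the mean of the others (difference -1.62 ± 0.29), and its difference too lost its call whichever of them was left out. ARG56 (0.25 against 1.52) and ARG7 (-0.06 against 1.21), which act in ornithine synthesis, were not called in NCYC3290 itself. Of these 4 genes, ARG1 and ARG4 were called higher in NCYC3290.

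HIS4, the gene of a histidine synthesis enzyme with several activities, had 16.1 and 26.2 RPKM in SynH, 58.1 and 33.8 RPKM in SynH -HTs, and 98.6 and 98.7 RPKM in YPD in NCYC3290. Its change of -1.11 ± 0.35 did not pass the test (adjusted p = 0.0723), and it differed from the mean of 1.09 in the other strains by -2.20 ± 0.39 (adjusted p = 0.00691), a call lost without SynH replicate 1 and without SynH -HTs replicate 1. The SynH level of NCYC3290 was below that of every other strain, where the range was 31.2 to 232.4 RPKM. In NCYC361 HIS4 had a change of 0.05. Of the lysine genes, LYS1, LYS20 and LYS9 were among the 21. LYS1, the last enzyme gene of lysine synthesis, had 14.9 and 18.6 RPKM in SynH and 12.2 and 12.3 RPKM in SynH -HTs, a change of 0.45 against 1.82 in the others (difference -1.38 ± 0.27, adjusted p = 0.0131), a call lost whichever 1 library was left out. Its SynH level in UWO.S05.22-7, 11.7 and 17.1 RPKM, overlapped that of NCYC3290. LYS20, a homocitrate synthase gene with a near-identical copy, had 27.5 and 27.1 RPKM in SynH and 46.7 and 39.0 RPKM in SynH -HTs (difference -1.52 ± 0.21, adjusted p = 0.00039), and it kept this call whichever 1 library was left out. HOM3, the aspartate kinase gene (difference -0.97), LYS9 (-0.71), TRP5 of tryptophan synthesis (-0.81), the asparagine synthetase gene ASN2 (-0.80) and MET22, a phosphatase gene of sulfate assimilation (-0.75), had smaller differences, each lost in 2 or more of the fits without a single library.

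Transporters stood beside the synthesis genes. DIP5 had a change of -3.91 in NCYC3290, against changes between -0.87 and 1.42 in the other strains and a mean of 0.08 (difference -3.99 ± 0.42, adjusted p = 5.69e-06). In SynH the other strains had 26.0 to 132.5 RPKM of DIP5, and in YPD NCYC3290 lay near K11, at 120.6 and 134.2 RPKM against 110.0 and 141.4 RPKM. BAP2, a permease of branched-chain amino acids, had 47.9 and 39.1 RPKM in SynH, 86.5 and 79.6 RPKM in SynH -HTs, and 137.6 and 144.1 RPKM in YPD in NCYC3290, a change of -0.94 against 0.41 in the mean of the others (difference -1.35 ± 0.26, adjusted p = 0.0106). The BAP2 changes were 1.60 in K11, 0.58 in NCYC361, 0.21 in Y7568, -0.09 in UWO.S05.22-7 and -0.26 in YPS128. Without K11 in the mean the BAP2 difference was not called. It also lost its call when SynH replicate 2 or either SynH -HTs library of NCYC3290 was left out. Genes of mitochondrial carriers were also called, ODC2 for oxodicarboxylates (difference -1.25 ± 0.28), GGC1 for guanine nucleotides (-0.97 ± 0.18) and YMC1 (-0.90 ± 0.20). ODC2 had 48.3 and 43.1 RPKM in SynH and 66.8 and 52.9 RPKM in SynH -HTs in NCYC3290, against 309.2 and 341.6 RPKM in SynH and 121.7 and 113.2 RPKM in SynH -HTs in K11. K11 had the largest ODC2 change, 1.47, against 0.68 to 0.81 in the rest of the other strains. In UWO.S05.22-7 the SynH level, 52.3 and 76.4 RPKM, was closer to that of NCYC3290. The differences of ODC2 and YMC1 were not called when K11 was left out of the mean. Without SynH replicate 2 of NCYC3290, ODC2, GGC1 and YMC1 all lost the call. ODC2 also lost it without SynH replicate 1 or SynH -HTs replicate 1. YMC1 lost it when either SynH -HTs library was left out, and GGC1 without SynH -HTs replicate 2.

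A last set consists of enzymes outside amino acid synthesis. AAD4, an aryl-alcohol dehydrogenase gene, was near 1 RPKM in all media in NCYC3290, with 3 and 7 reads in SynH and 3 and 5 in SynH -HTs. Its change of -0.13 there, against 2.55 in the mean of the others (difference -2.68 ± 0.42, adjusted p = 0.00185), therefore comes from a gene close to its detection limit, while YPS128 had 82.6 and 84.0 RPKM in SynH and 4.40 and 6.24 RPKM in SynH -HTs. ADH5, an alcohol dehydrogenase gene, had 10.6 and 8.22 RPKM in SynH and 5.69 and 5.30 RPKM in SynH -HTs in NCYC3290, a change of 0.77 that was not called, against 2.63 in the others (difference -1.87 ± 0.37). In SynH the other strains had 22.8 to 85.2 RPKM of it. The NCYC3290 values of ADH5 rest on 44 and 92 reads in SynH and 21 and 40 in SynH -HTs. Its difference lost its call whichever 1 of the 4 NCYC3290 libraries was left out. The ADH5 difference was also not called after median centring, after quantile normalization or when Y7568 was left out of the mean. YHI9 had 3.66 and 3.90 RPKM in SynH and 5.86 and 2.93 RPKM in SynH -HTs in NCYC3290, against 64.1 and 71.8 RPKM in SynH and 9.66 and 5.96 RPKM in SynH -HTs in Y7568 (difference -2.31 ± 0.43, adjusted p = 0.0102), a call lost in 3 of the 4 fits without a single library. Of the 21 genes with a more negative difference, 15 were not called in NCYC3290 itself, 3 were called higher and 3 lower.

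The upstream regions of 4 of these genes are shown because they hold the core TGACTC of the element bound by Gcn4. All are from R64, from 300 to 101 bases before the start codon and 5′ to 3′ on the strand of the gene, HIS4 at chrIII:68434-68633 on the minus strand, ARG1 at chrXV:218911-219110 on the plus strand, LYS1 at chrIX:420837-421036 on the minus strand and BAP2 at chrII:375791-375990 on the minus strand. Capitals mark TGACTC or its reverse complement GAGTCA.
HIS4: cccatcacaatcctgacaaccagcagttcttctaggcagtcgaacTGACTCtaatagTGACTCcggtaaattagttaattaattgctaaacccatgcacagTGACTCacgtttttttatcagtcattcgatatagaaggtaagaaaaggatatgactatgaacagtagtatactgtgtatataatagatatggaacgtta
ARG1: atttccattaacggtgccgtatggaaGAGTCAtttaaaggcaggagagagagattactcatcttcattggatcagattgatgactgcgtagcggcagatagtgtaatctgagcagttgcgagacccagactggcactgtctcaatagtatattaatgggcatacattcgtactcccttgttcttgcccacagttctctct
LYS1: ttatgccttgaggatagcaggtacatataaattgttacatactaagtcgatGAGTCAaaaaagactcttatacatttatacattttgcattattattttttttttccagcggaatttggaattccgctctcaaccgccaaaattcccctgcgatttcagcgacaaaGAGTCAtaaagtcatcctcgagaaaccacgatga
BAP2: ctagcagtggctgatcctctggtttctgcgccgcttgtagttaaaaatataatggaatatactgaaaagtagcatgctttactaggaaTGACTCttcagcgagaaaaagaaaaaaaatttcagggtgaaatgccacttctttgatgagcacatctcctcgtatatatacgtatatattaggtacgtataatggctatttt
HIS4 held 3 matches, which began 255, 243 and 199 bases before the start codon. LYS1 held 2, at 249 and 134 bases, ARG1 had 1 at 274 bases and BAP2 1 at 212 bases. Over the 300 bases before the start codon, on both strands, TGACTC occurred in 15 of the 21 genes with a more negative difference, in 0 of the 4 with a more positive one, and in 7.96% of all promoters of tested genes (441 of 5543). Of the 21, DIP5, AAD4 and LYS20 kept the call in all 4 fits without a single library, and these genes held no match. LYS9 and TRP5, which like LYS20 are on the Gcn4 list, held none either, nor did YHI9. Since most of the 21 were on the Gcn4 list or near it in function, the count of matches is a description of their reference sequence. Whether Gcn4 bound any of these regions was not measured.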

How the data were processed

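RNA of 36 cultures, 2 for each of 6 isolates in 3 media, was extracted with hot phenol, depleted of ribosomal RNA and made into libraries with a stranded kit, per the labels. Tools listed by the submitters' processing notes are HTSeq 0.6.0, Trimmomatic 0.30 and Bowtie2. For build, annotation and strand setting the entry is: not given in the sources used here. Genes that overlap another or have a near-identical copy (at least 95% identity over 100 bases) are therefore marked. The values are log2 RPKM deposited by the authors, with 1 read added to each count, as the values show: with the coding lengths of RefSeq R64, 99.85% of values gave whole reads within 0.05 reads. These recovered reads serve only as depth, 2203991 to 32832552 per library. They carry no molecular identifiers, so they describe sampling only. The authors' table has 6717 features and 6 rows that name no gene, which were left out, and 6025 features matched a RefSeq locus.

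The deposited values were tested without further scaling in limma 3.58.1 (R 4.3.3, intensity trend, two-sided), with 18 group means over 36 libraries and Benjamini-Hochberg adjustment over 5927 genes, threshold 0.05. The tests were the NCYC3290 change and its difference from the mean change of the other 5 strains. The fitting steps were tested on simulated data. P-values rest on the spread between biological replicates within a group, pooled over the 18 groups of all strains and media. They do not measure the spread between strains. Replicates of equal number did not deviate alike in SynH and SynH -HTs, and the fit has no block. The correlation over genes was negative in every strain, with r = -0.30 in NCYC3290 and -0.38 to -0.03 in the others. Within a medium, deviations are shared across strains (r = 0.43 to 0.58 in SynH -HTs and -0.01 to 0.63 in SynH), and a block by medium was an alternative. The 18 groups are thus not independent in their spread. The p-values of the fit without a block treat them as independent and do not allow for this sharing.

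The 35 gene lists, the comparison and the alternatives were chosen with earlier results of these data known. Named were the 15 largest rises and 12 largest falls (called, without overlap, mean of at least 10 RPKM over 4 libraries), a set of 12 genes whatever their values, up to 4 genes per list by smallest adjusted p, and up to 10 per direction for the difference, together with the other genes called there and some list members, chosen after their values were seen. 1 gene that the rule names is not reported here. Promoter letters are from the FASTA of R64.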

Additional observations from a re-analysis of the deposited data

Results flagged for a closer look

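The change of NCYC3290 in SynH against SynH -HTs differed from the mean change of the other 5 strains for 25 genes by a test of the difference itself, and these are the results put forward here. The log2 differences, NCYC3290 minus the mean of the others, were 3.62 for YPR127W, 3.47 for SED1, 2.82 for ADH7 and 1.33 for IRC7. They were -3.99 for DIP5, -2.68 for AAD4, -2.31 for YHI9, -2.20 for HIS4 and -1.87 for ADH5. For arginine genes they were -1.62 for ARG4, -1.61 for ARG1, -1.27 for ARG56 and -1.27 for ARG7, and for lysine genes -1.52 for LYS20, -1.38 for LYS1 and -0.71 for LYS9. BAP2 had -1.35, ODC2 -1.25, HOM3 -0.97, GGC1 -0.97, YMC1 -0.90, TRP5 -0.81, ASN2 -0.80 and MET22 -0.75. For ADH7, the changes of 12.90, 12.69 and 12.40 in NCYC361, Y7568 and YPS128 exceeded the 10.996 of NCYC3290. The ADH7 difference was not called when K11 or UWO.S05.22-7 was left out of the mean. Without K11, those of BAP2, MET22, ODC2, YMC1 and TRP5 were not called either. For YPR127W, NCYC361 came near NCYC3290 with a change of 4.93. No cause of the 25 differences was tested.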

How the results depend on the processing

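For 109 named genes in the NCYC3290 response and 24 in the difference, the estimate kept its sign under the alternatives run. Named genes without a call in the comparison concerned were not checked for this, YAP1 in the response apart. The balance of higher and lower calls among Gcn4 targets and Hsf1 chaperones, and the sign of the median of all genes, turned with the scaling. Of the 108 named genes called in the NCYC3290 response, 60 kept the call in all 4 fits without a single library and 47 in every alternative, and of the 24 called for the difference 6 and 5. Without 1 NCYC3290 library the response had 133 to 207 calls, 111 to 173 higher and 22 to 34 lower. The difference had 8 to 11, with 3 to 4 higher and 5 to 8 lower, and list members 78 to 104. In these fits the lone library of its group is assumed to vary like the other groups. Why the counts fell was not tested. With fewer libraries in the fit the counts were 115, 103 and 12, for the difference 7 with 4 lower, and for list members 75. Lower calls were 136 after median centring and 128 after quantile normalization, which gave 40 differences, 35 of them lower. Values below 1 RPKM set to 1 RPKM gave 40 differences, 14 higher. The cause of the last counts was not tested.

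Between SynH and SynH -HTs, the replicate differences correlated negatively over genes in every strain. The values were r = -0.30 in NCYC3290 and from -0.38 in YPS128 to -0.03 in NCYC361 in the others. Equal replicate numbers thus did not mark alike deviations, and the reason was not tested. The replicate block gave 334 calls, 278 and 56, 29 differences and 152 list members. The replicate block by medium gave 927 calls, 721 and 206, 81 differences, 23 and 58, and 286 list members. For the 927 calls, its error leaves out shared replicate differences to which the contrast of media remains exposed. The other alternatives here were chosen after seeing the data. Crossed replicate numbers gave 486 calls, 92 of them lower, and 47 differences, 9 and 38. Leaving out all SynH -HTs replicate 1 libraries gave 497 calls, 451 higher, and 14 differences, 10 lower. Without the replicate 2 libraries there were 104 lower calls and 15 differences, 11 lower. Without NCYC361 in the mean there were 11 higher differences. Depth limits genes with few reads, such as AAD4 and EGO4.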
